A study of Mus musculus with 26 samples.

Results

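The genes described here are 10 genes of the contractile apparatus of smooth muscle: Acta2, Actg2, Myh11, Mylk, Cnn1, Tagln, Smtn, Lmod1, Des and Myocd. They were chosen by name, as the rows of both RNA-seq count tables that carry these symbols. All 10 were found among 41442 gene rows, and all 10 passed the filter on low counts in both tables. The study sorted fluorescently labelled mesenchymal cells from the mouse reproductive tract and sequenced their RNA, with 6 groups of 3 libraries. Fetal cells came from the mesonephros, the tissue that carries the Wolffian and Müllerian ducts, of Gli1-CreER; Rosa-Tomato embryos. They form 4 groups: E14.5 female, E14.5 male, E16.5 female and E16.5 male Gli1+ cells. Cells of the neonatal uterus at E19.5 form the other 2 groups, Gli1+ cells from Gli1-CreER; Rosa-Tomato females and Amhr2+ cells from Amhr2-Cre; Rosa-Tomato females.

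All 6 groups carry a Tomato reporter at the Rosa locus, and the labels give tamoxifen (1 mg per dam on E12.5 and 13.5) for the dams of both lines. Gli1, a target of hedgehog signalling, drives a tamoxifen-dependent Cre, so the Gli1+ cells descend from cells that expressed Gli1 around the time of the injections. Amhr2, the receptor of anti-Müllerian hormone, drives a Cre that needs no tamoxifen, so the uterine groups differ in driver and in the timing of labelling as well as in identity. The sources used here do not say whether the 3 libraries of a group came from separate litters or animals. The p-values then measure the spread between these libraries, which may be technical. Fetal and uterine libraries were made with different kits, so each table was analysed by itself and no level is compared across the tables by a test.

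Smooth muscle cells contract when myosin light chain kinase, encoded by Mylk, phosphorylates the light chains of smooth muscle myosin, whose heavy chain is Myh11, and the myosin then pulls on filaments of smooth muscle actin, Acta2 and Actg2. Calponin (Cnn1), transgelin (Tagln), smoothelin (Smtn) and leiomodin (Lmod1) bind actin, and desmin (Des) forms intermediate filaments. Most of these genes are known targets of serum response factor (SRF), which binds a DNA element named the CArG box, and of myocardin (Myocd), the coactivator that SRF recruits in smooth muscle. In the reproductive tract, mesenchyme around the ducts forms the muscle coat of the epididymis and vas deferens in males and the myometrium in females. Acta2 is also made by myofibroblasts and by immature mesenchyme, whereas Myh11 is regarded as a marker of differentiated smooth muscle.

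The regulatory stretches behind these genes are shown first, since CArG boxes and open chromatin are what the 10 genes could share beyond their names. Open chromatin, measured by ATAC-seq, was deposited as 1 list of 71040 open regions for the fetal Gli1+ cells as a whole, with no column for sample or height, so it says where chromatin was open but not in which group. Of the regions lying in the 10 genes or up to 10 kb upstream, 50 were found. The nearest region that held an exact CArG box is printed for Acta2, Tagln, Myh11 and Cnn1, and a box in its central part is in capitals. For Acta2 the pair of promoter elements is added. Coordinates are on mm10, and every sequence reads 5′ to 3′ on the strand of the gene.
Acta2, 5′ promoter element, RefSeq promoter on GRCm38.p6, chr19:34255438-34255467, minus strand: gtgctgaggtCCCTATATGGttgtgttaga
Acta2, 3′ promoter element, RefSeq promoter on GRCm38.p6, chr19:34255388-34255417, minus strand: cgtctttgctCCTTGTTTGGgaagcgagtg
Acta2, intron, chr19:34254247-34254546, minus strand: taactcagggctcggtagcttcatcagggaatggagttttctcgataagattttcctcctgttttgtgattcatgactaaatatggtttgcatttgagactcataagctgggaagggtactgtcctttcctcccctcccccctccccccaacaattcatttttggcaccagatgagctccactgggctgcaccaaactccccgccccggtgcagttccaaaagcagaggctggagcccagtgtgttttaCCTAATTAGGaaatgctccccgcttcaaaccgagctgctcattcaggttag
Tagln, upstream, chr9:45936059-45936216, minus strand: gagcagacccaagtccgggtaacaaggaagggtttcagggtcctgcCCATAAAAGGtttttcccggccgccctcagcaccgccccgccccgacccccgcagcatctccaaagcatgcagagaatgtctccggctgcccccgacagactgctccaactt
Myh11, upstream, chr16:14292312-14292566, minus strand: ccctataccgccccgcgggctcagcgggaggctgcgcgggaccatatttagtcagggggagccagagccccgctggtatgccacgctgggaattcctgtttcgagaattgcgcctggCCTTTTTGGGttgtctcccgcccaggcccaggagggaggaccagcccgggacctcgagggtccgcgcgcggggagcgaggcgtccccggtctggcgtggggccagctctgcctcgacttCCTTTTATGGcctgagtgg
Cnn1, intron, chr9:22100004-22100191, plus strand: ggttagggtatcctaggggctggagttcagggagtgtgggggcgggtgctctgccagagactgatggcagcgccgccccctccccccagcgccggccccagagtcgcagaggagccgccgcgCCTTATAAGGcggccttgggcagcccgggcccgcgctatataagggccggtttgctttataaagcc
The Acta2 intron stretch holds the box CCTAATTAGG and begins 790 bases after the start of the row's gene model. The Tagln stretch, with CCATAAAAGG, covers the 158 bases that end just before the start of its gene model, and its region held a further exact box past the start. The Myh11 stretch lies from 1194 to 940 bases before the start and holds the exact box CCTTTTATGG and a second, CCTTTTTGGG, with 1 G among the 6 central letters. The Cnn1 stretch holds CCTTATAAGG and ends where GENCODE vM21 lists the exon of a shorter transcript. The Acta2 promoter elements CCCTATATGG and CCTTGTTTGG begin 84 and 34 bases before the RefSeq start (at -84 and -34), and each has 1 G or C among the 6 central letters. A pair of CArG boxes that each depart from the consensus by a single letter is a known feature of the Acta2 promoter.

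Among the 50 regions of the 10 genes, 9 (18%) held an exact CArG box in the 300 bases around their centre, against 1351 of 70999 regions (1.9%) in the whole list. A region narrower than 300 bases was searched past its ends, so a box can lie outside it, as some boxes with 1 G or C did in Mylk. Counting boxes with 1 G or C as well, the figures were 16 of 50 (32%) and 6838 of 70999 (9.63%). The search took the CArG box in its exact form and with 1 G or C among its 6 central letters, and 1 pass covered both strands because the pattern is its own reverse complement. Mylk alone held 22 of the 50 regions. Without Mylk, 6 of 28 regions (21.4%) held an exact box and 8 of 28 (28.6%) held either kind. Regions of 1 gene share their locus, so these shares are a description with no test. The RefSeq promoter table held windows of 300 bases, from 250 before to 50 after the start, for 6 of the 10 genes: Acta2, Cnn1, Des, Mylk, Lmod1 and Smtn. Of these, Acta2 held a box in the window, and the others held none. Over all 32851 promoters of that table, 1.63% held an exact box and 9.98% held either kind.

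Open chromatin at the gene start was found at a share close to that of all tested genes. A region overlapped the window around the start in 7 of the 10 genes, against 12593 of 17836 tested genes (70.6%), and lay within 1000 bases of the start in 8 of 10, against 79% of the tested genes. Actg2 and Mylk were the genes without one. The only region counted for Actg2 lay upstream, with its centre 6021 bases from the start, and the nearest region of Mylk had its centre 5198 bases from the start.

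Before the expression results, the libraries were checked. Total counts ranged from 23382983 to 64602477 in the fetal and from 28709191 to 37541045 in the uterine libraries, and a floor of 3 counts was worth 0.0464 to 0.128 CPM (a count scaled to the size of its library) and 0.0799 to 0.104 CPM. The collagen genes Col1a1 and Col1a2, markers of mesenchyme, were the most abundant of the 8 duct mesenchyme markers in all 6 groups, with means between 5310 and 22400 CPM. Gli1 itself stood at 184 CPM in E14.5 females, 228 in E14.5 males, 50.7 in E16.5 females and 208 in males of that age, and at 10.5 CPM in uterine Amhr2+ and 17.9 CPM in uterine Gli1+ cells. Skeletal muscle markers summed to at most 12.9 CPM in any library, with 8 or 9 of 10 genes under 1 CPM, and the myogenic regulator Myod1 stayed under 0.1 CPM in every library.

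In fetal Gli1+ cells the contractile genes were higher in males than in females, and the gap was wide at E16.5. Myh11 was 20.3-fold, Actg2 17.2-fold and Cnn1 14.6-fold higher in E16.5 males than in E16.5 females. Of the 10 genes, 9 passed the test at E16.5, all lower in females, whereas Des did not. By the same rule, 4883 of 17858 tested genes (27.3%) passed at E16.5 in either direction, and 14.1% were lower in females. At E14.5, 6 of 10 passed, again all lower in females, against 6.28% of tested genes in either direction and 3.69% lower in females. Counted by overlap, all 3 male libraries exceeded all 3 female libraries for 8 of 10 genes at E14.5 and 9 of 10 at E16.5, and 27.2% and 38.3% of tested genes had no overlap in either direction. The median log2 difference between females and males over the 10 genes was -1.42 at E14.5 and -2.28 at E16.5, beside medians of -0.014 and 0.0062 over all tested genes. These are bulk samples, so fewer cells of a type and less RNA per cell cannot be told apart in any of the results below.

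**Figure D1:**
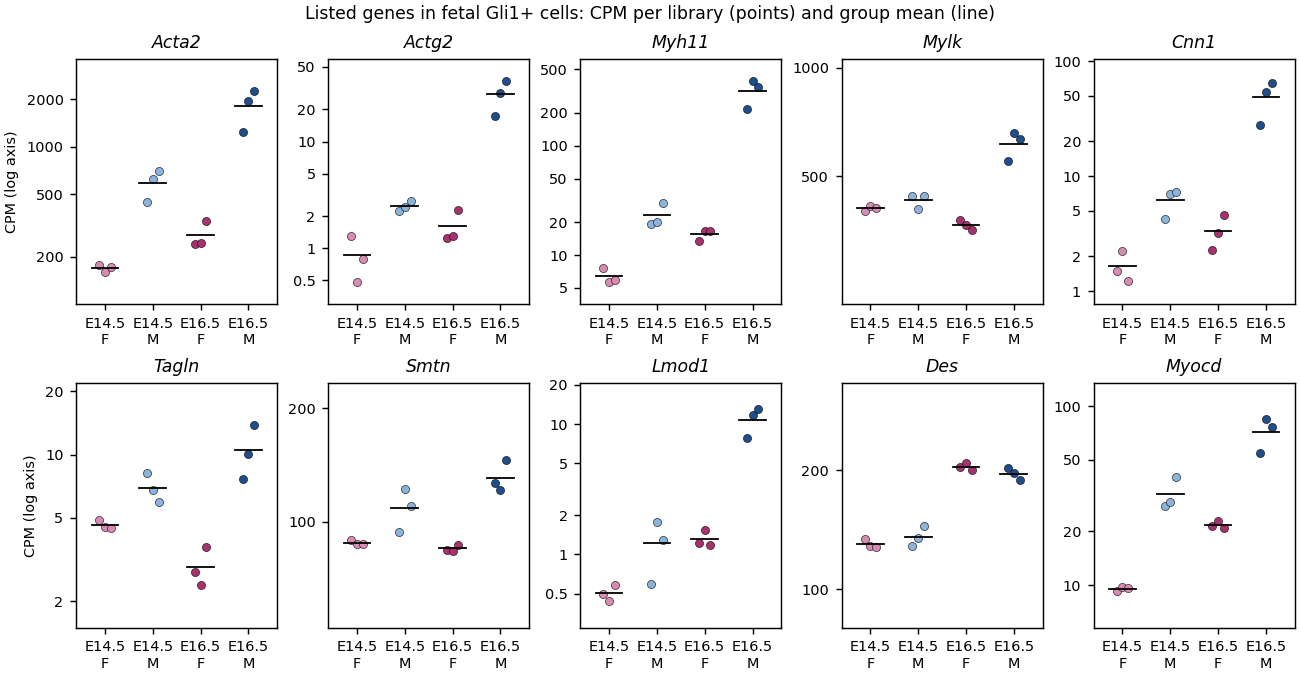
CPM of the 10 genes in each of the 12 fetal Gli1+ libraries (points, log axis, different range in each panel) with group means (lines), for females (F) and males (M) at E14.5 and E16.5. For Myh11 the E16.5 males lie between 215 and 386 CPM while the other 9 libraries lie at or below 30.1 CPM, and for Des the sexes overlap at both ages.

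Myocd, the coactivator (chr11:65176561-65269989, minus strand), differed between the sexes by the same factor at both ages. Its CPM was 9.25, 9.79 and 9.66 in E14.5 females and 27.7, 29.1 and 39.9 in E14.5 males. Among E16.5 libraries, females had 21.4, 22.8 and 21 and males 54.5, 84.4 and 76.5. Males were above females at each age with no overlap, and E16.5 females lay below E14.5 males. The log2 difference, females minus males, was -1.76 (SE 0.17, edgeR adjusted p = 4.26e-05) at E14.5 and -1.73 (SE 0.16, edgeR adjusted p = 2.93e-06) at E16.5, so that males were 3.39-fold and 3.31-fold higher. From E14.5 to E16.5 Myocd rose 2.27-fold in females and 2.22-fold in males. The change in the sex difference between the ages was 0.034 on the log2 scale, with a 95% interval from -0.46 to 0.52 and an edgeR adjusted p of 0.953.

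The smooth muscle actins followed. Acta2 (chr19:34241090-34255336, minus strand), the alpha actin of smooth muscle, was at 177, 160 and 173 CPM in E14.5 females and 444, 627 and 697 CPM in E14.5 males. It was at 241, 245 and 338 CPM in E16.5 females and 1244, 1934 and 2244 CPM in E16.5 males. All male libraries exceeded all female libraries, of either age. Males were 3.46-fold higher at E14.5 (log2 -1.79, SE 0.24, edgeR adjusted p = 0.0023) and 6.57-fold higher at E16.5 (log2 -2.72, SE 0.25, edgeR adjusted p = 2.65e-05). Actg2 (chr6:83512905-83536265, minus strand), the gamma actin of visceral smooth muscle, was scarce outside E16.5 males. It had 1.3, 0.478 and 0.796 CPM in E14.5 females, 2.23, 2.42 and 2.79 in E14.5 males, 1.25, 1.3 and 2.3 in E16.5 females, and 17.3, 28.7 and 37 in E16.5 males. Its E14.5 female values rest on 39, 12 and 22 reads, and its sex difference at E14.5 did not pass (log2 -1.52, SE 0.42, edgeR adjusted p = 0.0606) although the sexes did not overlap. At E16.5 it passed, with a log2 difference of -4.10 (SE 0.33, edgeR adjusted p = 2.93e-06). Actin genes are nearly identical in their coding sequence, so reads may be split between them or lost in counting, and the levels of Acta2 and Actg2 are uncertain for that reason.

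Myh11 (chr16:14194535-14291372, minus strand), the myosin heavy chain, showed the widest sex difference of the 10 genes at E16.5. It stood at 7.68, 5.69 and 5.9 CPM in E14.5 females, 19.1, 20.1 and 30.1 in E14.5 males, and 13.4, 16.52 and 16.4 in E16.5 females. In E16.5 males it stood at 215, 386 and 342 CPM, and every other fetal library was at or below 30.1 CPM. The log2 difference between the sexes was -1.85 (SE 0.28, edgeR adjusted p = 0.00386) at E14.5 and -4.35 (SE 0.27, edgeR adjusted p = 1.69e-06) at E16.5, the latter the 23rd lowest among 17858 tested genes. In males Myh11 rose 13.5-fold from E14.5 to E16.5, and in females 2.40-fold. Mylk (chr16:34784921-35002420, plus strand), the kinase, was well expressed in every group, and its row does not separate its isoforms. It had 401, 413 and 408 CPM in E14.5 females, 440, 407 and 440 in E14.5 males, 380, 367 and 354 in E16.5 females and 552, 660 and 636 in males of that age. The sexes overlapped at E14.5 (log2 -0.075, 95% interval -0.22 to 0.073) and separated at E16.5, when males were 1.68-fold higher (log2 -0.75, SE 0.07, edgeR adjusted p = 7.96e-07).

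Of the actin-binding genes, Cnn1 (chr9:22099216-22109630, plus strand), which inhibits the myosin ATPase, ran with Actg2 and Myh11. It had 1.5, 2.23 and 1.23 CPM in E14.5 females, 4.21, 7.04 and 7.28 in E14.5 males, 2.28, 3.22 and 4.55 in E16.5 females, and 27.8, 53.3 and 65 in E16.5 males. Its sex difference was -1.94 (SE 0.46, edgeR adjusted p = 0.0368) at E14.5 and -3.87 (SE 0.39, edgeR adjusted p = 5.57e-05) at E16.5. Lmod1 (chr1:135324807-135368065, plus strand), which nucleates actin filaments, was close to 1 CPM until the E16.5 males. It had 0.501, 0.438 and 0.579 CPM in E14.5 females (15, 11 and 16 reads) and 0.589, 1.78 and 1.28 in E14.5 males (14, 76 and 71 reads). At E16.5 it had 1.22, 1.55 and 1.19 CPM in females and 7.82, 11.7 and 13 in males. Males were 8.19-fold higher at E16.5 (log2 -3.03, SE 0.27, edgeR adjusted p = 5.64e-07). Smtn (chr11:3517523-3539292, minus strand), smoothelin, moved little in comparison. Its means were 87.9 ± 1.39 CPM (SD, n = 3) in E14.5 females, 109 ± 14.3 in E14.5 males, 85.1 ± 1.67 in E16.5 females and 131 ± 13 in males of that age. Males were 1.24-fold higher at E14.5 (edgeR adjusted p = 0.0466) and 1.54-fold higher at E16.5 (edgeR adjusted p = 5.22e-05). The E14.5 calls of Cnn1, Lmod1 and Smtn depended on single libraries: leaving out any E14.5 female library, E14.5 male replicate 2 or 3, or E16.5 female replicate 2 left 3 of the 10 genes called, Acta2, Myh11 and Myocd. With no filter on low counts the E14.5 call of Cnn1 was lost as well (edgeR adjusted p = 0.0795).

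Tagln (chr9:45929619-45936058, minus strand), transgelin, has to be read with its neighbour. The antisense row RP23-228B2.5 (chr9:45930112-45933738, plus strand) covers 56.3% of it, and the fetal kit kept no strand. In the fetal table Tagln held 3093 reads in all and RP23-228B2.5 held 19946, whereas in the uterine table, from a stranded kit, they held 78911 and 468. Tagln was at 4.87, 4.54 and 4.45 CPM in E14.5 females, 8.2, 6.76 and 5.93 in E14.5 males, 2.74, 2.39 and 3.64 in E16.5 females and 7.62, 10.1 and 13.8 in males of that age. Reads of the pair cannot be told apart in the fetal libraries, and the fetal levels of Tagln are uncertain for that reason. Males were 3.61-fold higher at E16.5 (log2 -1.85, SE 0.21, edgeR adjusted p = 6.49e-06). With the reads of both rows added together, an alternative chosen after their counts were seen, the E16.5 difference was -1.94 (SE 0.50, edgeR adjusted p = 0.0202). On this sum the calls of Tagln for age in females (edgeR adjusted p = 0.345), age in males (0.638) and the change of the sex difference with age (0.441) were lost. Most reads of the sum were counted in the row of RP23-228B2.5, which had 14.57, 85.82 and 88.35 CPM in E16.5 males. Without strand, it is not known from which of the genes those reads came. Neither the sum nor the row of Tagln alone can therefore decide whether the calls hold for Tagln itself.

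Des (chr1:75360329-75368579, plus strand), the intermediate filament protein, was the exception of the list in that the sexes overlapped at both ages. Des rose with age in both sexes, as did Acta2, Myh11, Myocd and Lmod1. It had 134, 129 and 128 CPM in E14.5 females and 129, 135 and 145 in E14.5 males, then 204, 209 and 201 in E16.5 females and 203, 197 and 189 in males of that age. The sex difference was -0.066 (95% interval -0.19 to 0.059) at E14.5 and 0.058 (95% interval -0.065 to 0.18) at E16.5. The rise was 1.57-fold in females (log2 0.65, SE 0.06, edgeR adjusted p = 5e-07) and 1.44-fold in males (log2 0.53, SE 0.06, edgeR adjusted p = 6.79e-06).

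Between E14.5 and E16.5 all 10 genes rose in males, against 13.1% of tested genes that rose and 23.3% that changed in either direction. The rises ranged from 1.21-fold for Smtn to 13.5-fold for Myh11, with Actg2 at 11-fold (log2 3.46, SE 0.32), Lmod1 at 8.47-fold, Cnn1 at 7.72-fold and Acta2 at 3.07-fold. The calls of Tagln and Smtn were the weakest of these (edgeR adjusted p = 0.0331 and 0.0323), and for both the ages overlapped. Each was lost in 6 of 17 alternative fits, among them that of only the 6 male libraries (edgeR adjusted p = 0.0706 and 0.11). The ages did not overlap for the other 8 genes, nor for 34.9% of tested genes. In females 5 genes rose (Acta2, Myh11, Myocd, Lmod1 and Des) and Tagln fell, while 39.6% of tested genes changed, 21% upward and 18.6% downward. The ages did not overlap for 9 of the 10 genes in females, against 56.6% of tested genes, so neither count stands far from its background. The female rises ran from 1.57-fold for Des to 2.59-fold for Lmod1, and Actg2 and Cnn1 did not pass (edgeR adjusted p = 0.14 and 0.12). The female rise of Acta2 (edgeR adjusted p = 0.0421) was lost in 9 of 17 alternative fits, among them that with no filter on low counts (0.0857). The female fall of Tagln was lost in 5 of 17. The age and sex comparisons share libraries, so they are not independent of each other.

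**Figure D2:**
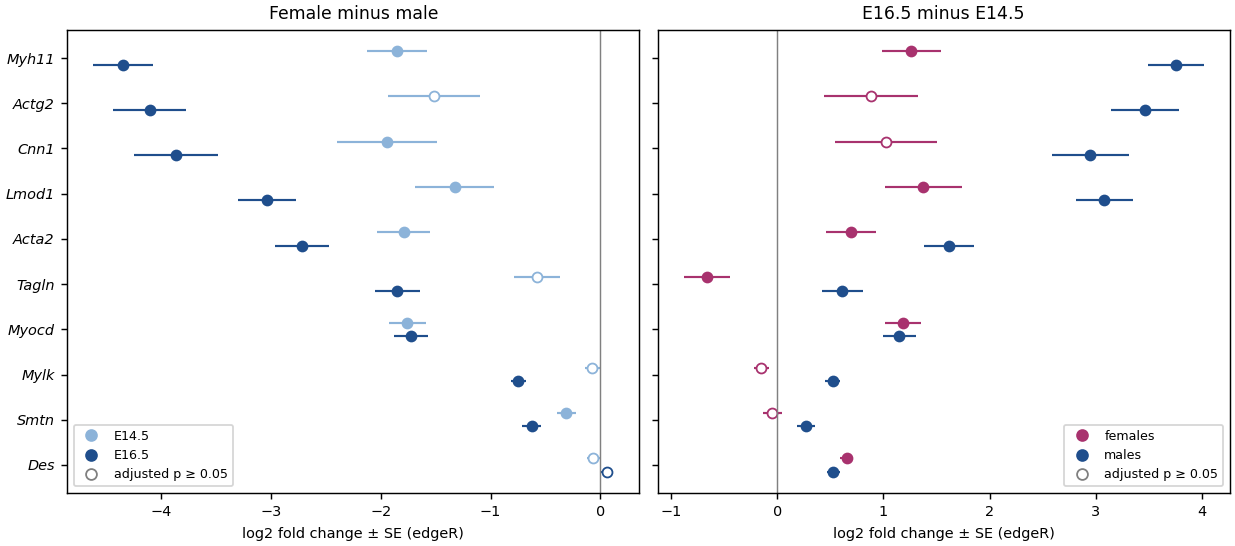
Log2 fold changes with their standard errors for the 10 genes in fetal Gli1+ cells, females minus males at each age (left) and E16.5 minus E14.5 in each sex (right), with open symbols where the edgeR adjusted p was 0.05 or more. The light and dark symbols of Myocd lie almost together in both plots (-1.76 and -1.73 on the left), whereas those of Myh11 lie 2.49 apart.

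The change of the sex difference between the ages was tested directly, as an interaction of sex and age. It passed for 5 of the 10 genes, all with a wider gap at E16.5, against 10% of tested genes in either direction and 5.36% in this direction. The interaction was -2.59 for Actg2 (SE 0.57, edgeR adjusted p = 0.0131), -2.49 for Myh11 (SE 0.37, edgeR adjusted p = 0.00223) and -1.71 for Lmod1 (SE 0.47, edgeR adjusted p = 0.0309). Tagln had -1.27 (edgeR adjusted p = 0.00998) and Mylk -0.67 (SE 0.10, edgeR adjusted p = 3e-04). Acta2 (-0.92, edgeR adjusted p = 0.125) and Cnn1 (-1.92, edgeR adjusted p = 0.087) did not pass. Same-numbered libraries of the sexes deviated together at E16.5. With the replicate number as a block, both genes passed, Acta2 at -0.92 (edgeR adjusted p = 0.0475) and Cnn1 at -1.94 (edgeR adjusted p = 0.000117), making 7 of 10. That block also tied same-numbered E14.5 libraries, whose correlations (0.0725, 0.0504 and 0.0508) lay under the limit of 0.1 set for pairs. Smtn, Des and Myocd passed in neither fit. The call of Actg2 was lost in 2 of 16 alternative fits, among them that with no filter on low counts (edgeR adjusted p = 0.0552). That of Lmod1 was lost in 8 of 16. Without E16.5 male replicate 1, 7 of the 10 passed, and without E14.5 female replicate 1, 3 passed. In the group of E16.5 males, replicate 1 was the lowest for Acta2, Actg2, Myh11, Tagln, Cnn1, Mylk, Lmod1 and Myocd. The same library was the lowest of its group for Srf, which encodes SRF, with 155 CPM against 353 and 442, and for Actb, with 1962 CPM against 3185 and 3741. The part of these in the spread of the group was not tested.

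Expressing each gene per read of Myocd in the same library gives a measure that no scaling of libraries can move, and 5 of the other 9 genes had their highest fetal mean by it in E16.5 males. This ratio was chosen after the values were seen and is given with no test. Myh11 gave 0.83, 0.581 and 0.61 reads per read of Myocd in E14.5 females, 0.69, 0.691 and 0.755 in E14.5 males and 0.629, 0.725 and 0.784 in E16.5 females. In E16.5 males it gave 3.95, 4.58 and 4.47. These 9 libraries thus lay between 0.581 and 0.83 although their Myocd levels ran from 9.25 to 39.9 CPM. Cnn1 behaved alike, with means of 0.172 ± 0.0509, 0.192 ± 0.0457 and 0.155 ± 0.0564 (SD, n = 3) in the same 3 groups and 0.664 ± 0.172 in E16.5 males. Actg2 had 0.0907, 0.0778 and 0.0751 in those groups and 0.381 ± 0.0903 in E16.5 males, and Lmod1 had 0.0529, 0.0382 and 0.0606 and then 0.15 ± 0.0166. Acta2 was less set apart, with 17.8 ± 1.39, 18.3 ± 2.85 and 12.7 ± 2.97 against 25 ± 3.73 reads per read of Myocd. The other 4 genes went the other way between E14.5 females and E16.5 males. Mylk had 42.6 and 8.75 reads per read of Myocd, Des 13.6 and 2.84, Smtn 9.2 and 1.89, and Tagln 0.484 and 0.146.

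**Figure D3:**
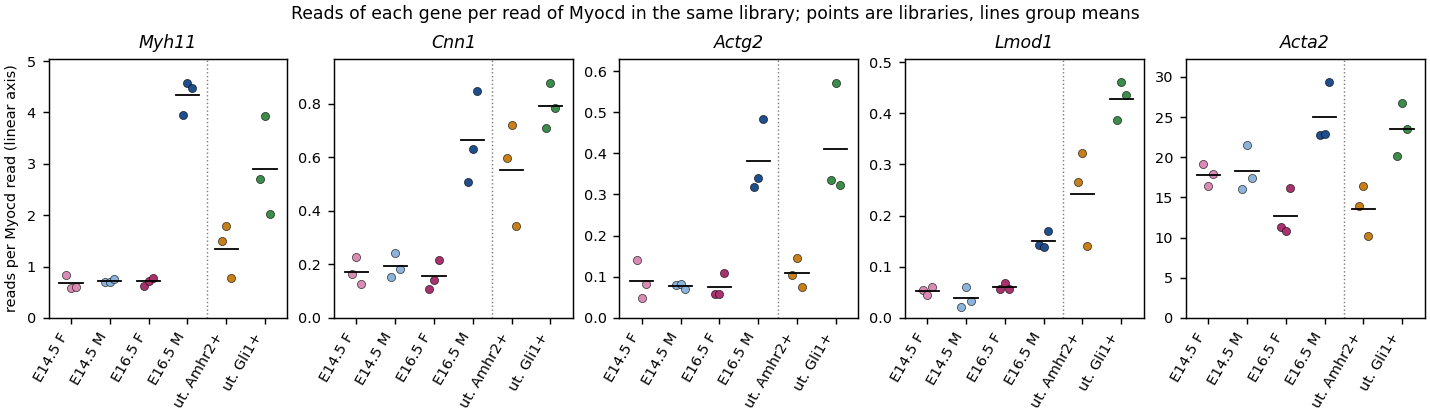
Reads of Myh11, Cnn1, Actg2, Lmod1 and Acta2 per read of Myocd in the same library (linear axes), for the 4 fetal groups and, right of the dotted line, the 2 uterine (ut.) groups, whose libraries came from another kit. For Myh11 the 9 libraries of E14.5 females, E14.5 males and E16.5 females lie between 0.581 and 0.83 and the E16.5 males between 3.95 and 4.58.

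The order of the fetal groups was the same for Myocd, Acta2, Myh11, Actg2 and Cnn1: E14.5 females lowest, then E16.5 females, E14.5 males and E16.5 males. The middle pair, E16.5 females and E14.5 males, did not overlap for Myocd, Acta2 and Myh11 and overlapped for Actg2 and Cnn1. For Lmod1 the middle pair stood in the reverse order with overlap. Across the 12 fetal libraries the median Pearson correlation of a gene's log2 CPM with those of the other 9 was 0.946 for Cnn1, 0.945 for Myh11 and 0.498 for Des. These libraries share the 4 groups, and on deviations from the group means the medians were 0.522, 0.567 and 0.029. The within-group median was highest for Acta2, at 0.662.

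Levels were compared between genes per length, as RPKM, the CPM per kilobase of exon, with exon lengths from GENCODE vM21. Acta2 was the most abundant of the 10 in all 6 groups, from 77.5 ± 4.02 RPKM (SD, n = 3) in E14.5 females to 823 ± 233 in E16.5 males, and Lmod1 was the least abundant in all 6. In E14.5 females Mylk (36.2 RPKM), Des (34.7) and Smtn (20.1) came next, while Myh11 was at 0.845 and Actg2 at 0.551 RPKM. In E16.5 males Myh11 had reached 41.4 ± 11.7 RPKM and stood behind Mylk (54.7 ± 5.04) and Des (52.3 ± 1.83), and its libraries overlapped those of both. In the uterus Tagln held the second place, with 166 ± 31.1 RPKM in Amhr2+ and 222 ± 39.2 RPKM in Gli1+ cells. The fetal rank of Tagln is uncertain because of the overlapping antisense row.

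In the neonatal uterus both populations expressed the whole set. Actg2 was 3.47-fold, Acta2 1.64-fold and Mylk 1.25-fold higher in Gli1+ than in Amhr2+ cells, and these 3 of 10 passed the test. Over all 16195 genes tested, 23.9% passed in either direction and 13.7% were lower in Amhr2+ cells, so the count of members lies near its background. No member passed as higher in Amhr2+ cells. The median log2 difference, Amhr2+ minus Gli1+, was -0.42 over the 10 genes and -0.0017 over all tested genes.

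Actg2 was at 6.58, 9.14 and 4.47 CPM in Amhr2+ and 22.9, 27.9 and 19.53 CPM in Gli1+ cells, with no overlap (log2 -1.79, SE 0.25, edgeR adjusted p = 0.00238). Acta2 was at 875, 1026 and 605 CPM against 1376, 1307 and 1425 CPM (log2 -0.71, SE 0.17, edgeR adjusted p = 0.0242). Mylk was at 656, 665 and 572 CPM against 788, 833 and 751 CPM (log2 -0.33, SE 0.08, edgeR adjusted p = 0.0172). Myh11 and Lmod1 did not overlap between the populations either but did not pass, so that 5 of 10 genes had no overlap, near the 44.4% of tested genes. Myh11 had 93.2, 112 and 46.5 CPM in Amhr2+ and 184, 192 and 122 CPM in Gli1+ cells (log2 -0.99, SE 0.36, edgeR adjusted p = 0.112). Lmod1 had 16.6, 20.1 and 8.44 against 26.4, 22.5 and 26.4 CPM (log2 -0.73, edgeR adjusted p = 0.106). In Amhr2+ cells replicate 3 was the lowest for Acta2, Actg2, Myh11, Tagln, Cnn1, Mylk and Lmod1. Without it 4 genes passed, Acta2 (log2 -0.53), Actg2 (-1.58), Mylk (-0.26) and Lmod1 (-0.45, edgeR adjusted p = 0.0381). DESeq2 called 6, adding Myh11, Tagln and Lmod1 to the 3. The call of Acta2 was lost in 6 of 10 alternative fits, among them that with no filter on low counts (edgeR adjusted p = 0.122). That of Mylk was lost in 3 of 10, among them that with library sizes not scaled by TMM (log2 -0.24, edgeR adjusted p = 0.0526). Actg2 kept its call in all 10. The fit without Amhr2+ replicate 1 and the fit without Gli1+ replicate 1 each called 1.

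Myocd did not move with them. It stood at 62.7, 62.3 and 59.6 CPM in Amhr2+ and 68.2, 48.9 and 60.5 CPM in Gli1+ cells, which overlapped (log2 0.056, 95% interval -0.20 to 0.31). Des (189 ± 8.02 and 192 ± 9.94 CPM, SD, n = 3) and Smtn (172 ± 6.83 and 178 ± 20 CPM) overlapped as well, with 95% intervals of the log2 difference from -0.17 to 0.12 and from -0.24 to 0.15. Cnn1 (34.3 ± 12.6 and 46.2 ± 2.89 CPM) and Tagln (329 ± 61.9 and 441 ± 77.9 CPM) overlapped with wider intervals, from -1.06 to 0.21 and from -0.81 to -0.031. Per read of Myocd, Actg2 had 0.105, 0.147 and 0.075 reads in Amhr2+ and 0.336, 0.572 and 0.323 in Gli1+ cells.

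**Figure D4:**
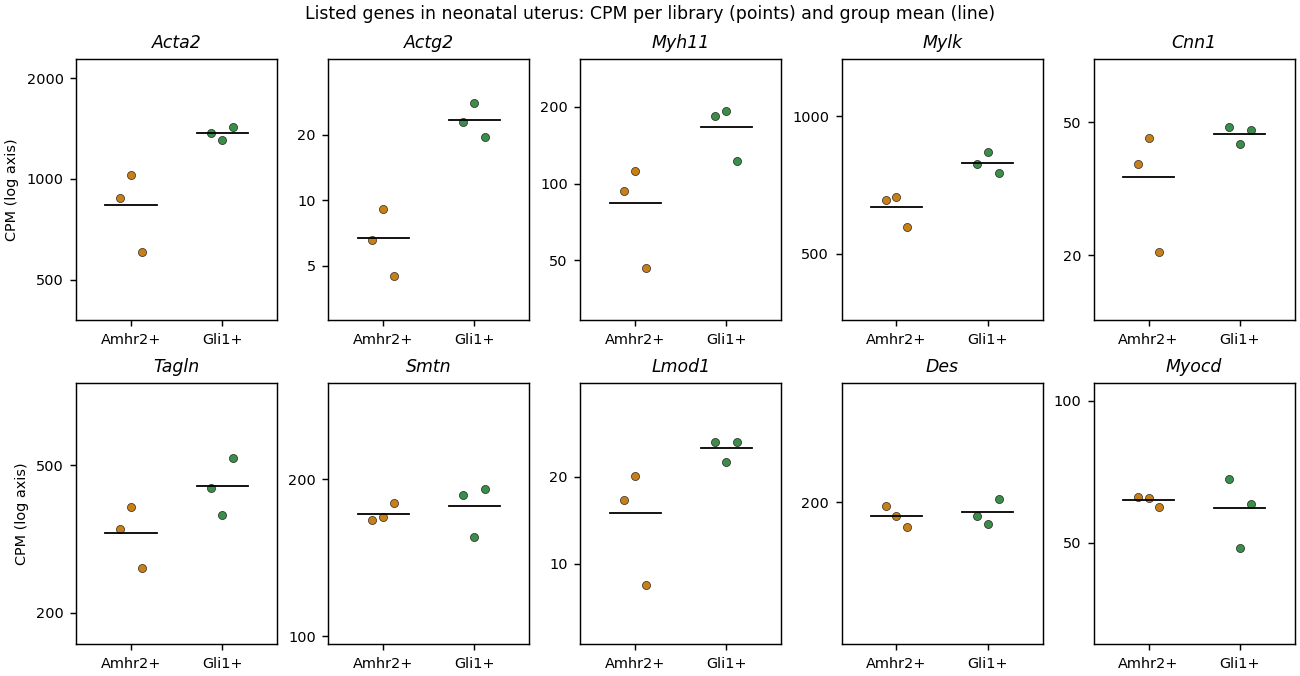
CPM of the 10 genes in the 6 libraries of neonatal uterus (points, log axis, different range in each panel) with group means (lines), for Amhr2+ and Gli1+ cells. Actg2 lies between 4.47 and 9.14 CPM in Amhr2+ and between 19.53 and 27.9 CPM in Gli1+ cells, while Myocd overlaps.

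A further list of contractile genes was read beside the 10. Of 36 accessory contractile genes, which encode light chains, tropomyosins, adhesion and scaffold proteins and channels, 23 were lower and 4 higher in females at E16.5, with a median log2 difference of -0.66, against 27.3% of tested genes called and 14.1% lower. Pdlim3, a scaffold protein of actin bundles, had the widest difference (log2 -2.89, SE 0.15, edgeR adjusted p = 6.68e-09), with 80.3 ± 5.82 CPM in E16.5 males and 10.9 ± 0.711 CPM in females of that age (SD, n = 3). Nexn, an actin-binding protein, had -2.11 and Myl9, the regulatory light chain, had -1.59. The genes higher in females included Itga8 (0.59), an integrin of mesenchyme, and the channel genes Kcnma1 (0.44) and Cacna1c (0.40). At E14.5, 8 of the 36 were lower and 1 higher in females and 27 did not pass, against 6.28% of tested genes called. With age, 19 rose and 2 fell in males, against 23.3% of tested genes called. In females 14 rose and 6 fell, against 39.6% called. In the uterus 9 were lower in Amhr2+ cells, led by Ppp1r14a (-1.23), an inhibitor of myosin phosphatase, and 4 were higher, led by Synm (1.103), an intermediate filament protein, while 23 did not pass and 23.9% of tested genes were called.

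Of 20 tested regulators of smooth muscle genes, 6 were lower and 3 higher in females at E16.5, when 27.3% of tested genes were called. Their median log2 difference was -0.00135, so the list as a whole was not shifted between the sexes. Klf5, a zinc finger factor, had a log2 difference of -2.21 (edgeR adjusted p = 3.03e-07) and Mef2c, a MADS-box factor like SRF, had -1.20 (edgeR adjusted p = 2.35e-07). Both also rose with age in males, by 1.57 and 1.37 on the log2 scale, and their sex by age interactions passed (-1.14 and -1.17). Mkl2, which encodes a coactivator of SRF related to myocardin, had -0.81 at E16.5. Srf itself was at 438 ± 21.8 CPM in E14.5 females, 492 ± 74.2 in E14.5 males, 289 ± 85.3 in E16.5 females and 317 ± 147 in males of that age (SD, n = 3), with overlap between the sexes at both ages. In the uterus 8 of 19 were lower in Amhr2+ cells and none passed as higher, against 23.9% of tested genes called and 13.7% lower. Among them were Gata6 (log2 -2.38, 8.6 ± 0.878 against 45 ± 4.94 CPM) and the Notch pathway genes Heyl (-1.34) and Notch3 (-0.68).

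Paralogs of the 10 genes that serve other cells were a further list. Of 16 tested, 7 were lower and 1 higher in females at E16.5, with a median of -0.37, against 27.3% of tested genes called and 14.1% lower. They were led by Actc1 (-2.15), the cardiac actin, which stayed at or below 1.2 CPM in the fetal libraries, and by Smtnl2 (-1.67) and Tagln2 (-1.63). The cytoplasmic actin Actb had means between 2450 and 2960 CPM in the 4 fetal groups.

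The 8 genes outside the list whose log2 CPM was most like the mean pattern of the 10 over the 12 fetal libraries were Nexn (Pearson r = 0.993), Acp6 (0.988), Tnik (0.988), Efemp1 (0.987), Myl9 (0.983), Col4a3 (0.983), Klhl2 (0.982) and Adamts16 (0.981), out of 10456 genes ranked. The libraries share the 4 groups, so these values describe a likeness with no test. Nexn and Myl9 also belong to the accessory list. Efemp1, an extracellular matrix protein of elastic fibres, had means of 111 ± 16.4 CPM in E16.5 males and 11.4 ± 1.7 CPM in E14.5 females (SD, n = 3). Adamts16, a secreted metalloprotease, was at 24 ± 1.6 CPM in E14.5 females, 56.5 ± 13.8 in E14.5 males, 41.6 ± 5.92 in E16.5 females and 254 ± 8.01 in males of that age. The uterine libraries played no part in the choice. There Efemp1 (log2 -1.99, edgeR adjusted p = 0.000203), Tnik (-1.17, edgeR adjusted p = 0.00887), Myl9 (-0.66) and Klhl2 (-0.58) passed as lower in Amhr2+ cells, and Nexn, Acp6, Col4a3 and Adamts16 did not pass, against 23.9% of tested genes called and 13.7% lower.

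Markers of vascular smooth muscle and pericytes, cells that also carry contractile proteins, were set beside these results. Their 9 genes summed to 715 to 754 CPM in E14.5 females, 602 to 632 in E14.5 males, 681 to 766 in E16.5 females and 579 to 658 in males of that age. Most of the sum was Pdgfrb, which mesenchyme also expresses. At E16.5 females were higher for Pdgfrb (log2 0.63) and lower for Cspg4 (-0.60) and Kcnj8 (-0.38), and the other 5 tested genes did not pass. These were 3 of 8 tested, against 27.3% of all tested genes called. Rgs5 had means of 14.4 ± 2.73 CPM in E16.5 males and 12.8 ± 0.482 CPM in E16.5 females (SD, n = 3), and Higd1b was at most 0.374 CPM in any fetal library. From E14.5 to E16.5, 5 of the 8 tested markers rose and 2 fell in males, and 4 rose and 1 fell in females, against 13.1% and 21% of tested genes that rose. Rgs5 (log2 1.25) and Abcc9 (1.22) were among those that rose in males. In the uterus the sum was 796 to 994 CPM in Amhr2+ and 865 to 1040 CPM in Gli1+ cells. Within the Amhr2+ group, replicate 3 was the lowest for Rgs5 too, with 34.5 CPM against 90.4 and 97.4. Markers of other cells and of duct mesenchyme moved with the comparisons too. At E16.5, 3 of 5 immune markers were higher in females (median log2 difference 1.94), against 27.3% of tested genes called in either direction. The summed immune level was 27 to 69.4 CPM in females and 11.9 to 45.7 CPM in males. At E16.5, 7 of 8 duct mesenchyme markers (4 higher, 3 lower in females) and 4 of 6 endothelial markers (2 in each direction) passed. With age in females, all 8 duct mesenchyme markers passed, 5 rising and 3 falling. There 4 of 6 endothelial markers fell (median -0.66) and 3 of 5 immune markers rose (median 1.3). Of 5 tested gonad somatic markers, 4 fell and 1 rose (median -0.94). Of all tested genes, 39.6% changed with age in females. In the uterus 3 of 6 endothelial markers (median -0.74) and 3 of 3 tested erythroid markers (median -1.92) were lower in Amhr2+ cells, and 3 of 6 tested epithelial markers (median 0.83) were higher. Of all tested genes there, 23.9% were called and 13.7% were lower in Amhr2+ cells. The summed endothelial level was 24 to 29.8 CPM in Amhr2+ and 37.2 to 45.2 CPM in Gli1+ cells, the erythroid level 1.67 to 2.46 and 7.65 to 8.51 CPM, and the epithelial level 49.9 to 50.7 and 18.2 to 29.6 CPM. The part of any of these markers in the sex, age, uterine and replicate differences of the 10 genes was not tested.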

How the data were processed

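RNA-seq was given as raw read counts per gene, deposited by the authors as 1 table of 12 fetal and 1 table of 6 uterine libraries. ATAC-seq was given as the positions of peaks deposited by the authors as 1 list. The submitters' processing notes name STAR 2.5, featureCounts, Subread 1.5.0-p1, Bowtie 1.2, SAMtools 1.3.1, Picard, bedtools 2.24.0 and MACS2 2.1.1, with mm10. The annotation version and the use of strand in counting are not given in the sources used here. Per the labels' protocols, fetal libraries used a non-stranded and uterine libraries a stranded kit. Positions, on mm10, were matched to GENCODE vM21 and to RefSeq promoters of GRCm38.p6.

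Each table was fitted as a whole with edgeR 4.0.16 (quasi-likelihood test, robust, TMM, filterByExpr by group) in R 4.3.3, with Benjamini-Hochberg adjustment over all genes tested (17858 fetal, 16195 uterine) and a threshold of 0.05. A fetal model of 4 group means used all 12 libraries. CPM used TMM-scaled library sizes. Standard errors are the log2 fold change divided by the root of the F statistic, and intervals are at 95%. Floors of 3 counts cover counting error only. Likeness was the Pearson correlation of log2 CPM (prior count 2) with the mean of the scaled levels of the 10 genes, over genes reaching a mean of 10 CPM in at least 1 group. The procedure was run on simulated data with 200 changed genes, for sex at E14.5 and the uterus only, with the same dispersion for every gene. The other comparisons were not simulated, and the run does not cover genes whose libraries spread more widely.

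The members and lists were chosen with earlier results of these data known. The rule for named genes took the 10 genes, at most 3 called genes in each direction from each further list per comparison, marker genes, and the 8 most alike genes. Srf, Actb and the promoter and peak stretches beyond that rule were chosen after their values were seen. Marker lists of endothelium, epithelium, gonad somatic cells, immune, neural and erythroid cells summed to 24 to 126, 14.4 to 50.7, 44.6 to 120, 11.9 to 83.4, 8.79 to 12.8 and 1.67 to 118 CPM per library. No pair of libraries of a group agreed within sampling noise. Replicate numbers come from the titles, and the labels tie them to no litter or day. They were checked as pairs by correlating how far libraries of the same number lay from their group means, which gave 0.284, 0.115 and 0.396 between the sexes at E16.5. All were above 0.1, the limit for calling the numbers pairs, and in no other comparison were all 3. Alternatives were DESeq2 1.42.0, library size without TMM, no filter, fits of the 6 libraries compared, a replicate block and leaving out each library.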

Additional observations from a re-analysis of the deposited data

Results flagged for a closer look

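The sex difference of 5 of the 10 genes changed between E14.5 and E16.5 by the direct test of sex and age together in fetal Gli1+ cells, with a wider gap at E16.5. The change on the log2 scale was -2.59 for Actg2, -2.49 for Myh11, -1.71 for Lmod1, -1.27 for Tagln and -0.67 for Mylk. The value of Tagln rests on a row that overlaps an antisense row in libraries without strand. With both rows added, a sum made mostly of reads counted in the antisense row, it was -1.002 and did not pass (edgeR adjusted p = 0.441). Which of the genes those reads came from is not known. The call of Lmod1 was lost in 8 of 16 alternative fits. The Myocd change, 0.034, did not pass.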

How the results depend on the processing

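At E16.5 the sex differences of 9 genes kept their direction and their call under every alternative listed in the methods. Over those alternatives and all comparisons, 830 values kept their direction and side of the threshold, 31 came to pass it, 70 no longer passed it and 9 reversed. The cause was not tested where a value moved. DESeq2 called 6 of the 10 genes in the uterus against 3. Leaving out single libraries gave the following ranges: for sex at E14.5, 3 to 7 of the 10 genes and 553 to 1678 of all genes; for sex at E16.5, 9 to 9 and 3618 to 5745; for age in females, 4 to 9 and 5249 to 7729; for age in males, 8 to 10 and 3364 to 4238; for the interaction, 3 to 7 and 1335 to 2687; for the uterus, 1 to 4 and 1949 to 3521. Where an arm was left with 2 libraries, their spread was pooled with the other groups. Reversals were in values near 0: with library size only, Des had 0.063 and Smtn 0.039 in the uterus, and with 1 library left out Des ran from -0.056 to 0.020, Smtn from -0.14 to 0.011 and Myocd from -0.066 to 0.17. The interaction of Myocd ran from -0.15 to 0.16 with 1 library left out. Library size only moved the split of all calls, higher against lower, to 1847 and 2641 for age in males (2340 and 1827 with TMM) and to 2849 and 1640 in the uterus (1642 and 2224 with TMM). The replicate block called 8, 9, 8, 8, 7 and 3 of the 10 genes for sex at E14.5, sex at E16.5, age in females, age in males, the interaction and the uterus. With the block, E14.5 sex differences were called for 676 higher and 904 lower genes (462 and 659 without). At E14.5, for age and in the uterus the same-numbered libraries did not all reach the limit for pairs. At E14.5 all 6 libraries were still most correlated with the library of their own number, at 0.0725, 0.0504 and 0.0508. Under the block, Actg2 and Tagln at E14.5, Actg2 and Cnn1 for age in females, and Myh11 in the uterus came to pass, while Tagln and Smtn for age in males and Acta2 in the uterus no longer passed. Depth limits Actg2, Lmod1 and Cnn1 in E14.5 females, which had 11 to 56 reads per library. It also limits Lmod1 in E14.5 males, where replicate 1 had 14 reads.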
